A study of Mus musculus with 12 samples.

Results

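The genes described here are 9 mouse genes around the amyloid precursor protein and tau, namely the APP family genes *App*, *Aplp1* and *Aplp2*, the Fe65 family genes *Apbb1* and *Apbb2*, the secretase genes *Adam10*, *Bace1* and *Psen2*, and the tau gene *Mapt*. They were listed by name, out of 55450 annotated genes, with earlier results of these data known, and their H4K12ac peaks were read within 2 kb on either side of the transcription start site (TSS) and along the gene body. ChIP-Seq for the mark was done on hippocampal neuronal nuclei, sorted by FACS, from 5 conditional knockout (*Tip60* cKO) mice and 5 control mice. *Tip60* cKO mice carried the *CaMKCreERT2* driver and *Tip60* f/f, that is a floxed *Tip60* gene on both alleles, whereas control mice were *Tip60* f/f without the driver. All mice of both groups had received tamoxifen at 8 to 10 weeks of age and were used at day 10 after the last injection, and the sample labels give males of the strain C57BL/6J aged 3 months. The driver is active in excitatory forebrain neurons, so sorted nuclei of inhibitory neurons may keep TIP60 in both groups, which was not measured here. A weaker mark in every nucleus and a lost mark in some of the nuclei cannot be told apart in such pools.

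APP is a membrane protein that is cut by secretases, with ADAM10 acting as alpha-secretase, BACE1 as beta-secretase and presenilin 2 as a catalytic subunit of gamma-secretase. The cut that gamma-secretase makes frees the intracellular domain of APP, which binds the adaptor Fe65 and is known to form a nuclear complex with the acetyltransferase TIP60. Tau binds microtubules in axons and forms the neurofibrillary tangles of Alzheimer's disease. H4K12ac, an acetylated lysine of histone H4, is a mark of active chromatin that lies mostly around the TSS and into the gene.

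Each library was represented by its own MACS peak list, with 64245 to 136409 peaks called from 22864189 to 37923809 tags. The library of *Tip60* cKO replicate 5 was the shallowest and its list the shortest. Differences in TSS coverage of the 9 genes are also given without it, at the 5′ end or, for *Psen2*, at a start inside the gene. Peaks were present at the TSS of all 3 markers of excitatory neurons in every list and at none of the 3 markers of microglia. Of the 4 general neuronal markers, 3 had a TSS peak in all 10 lists and *Syn1* lacked one in 1 *Tip60* cKO list. Of the astrocyte markers, *Gfap* had 19.6 ± 4.87% of its TSS window covered in control and 4.60 ± 3.36% in *Tip60* cKO mice (SD, n = 5, limma adjusted p = 0.0287, or 0.0532 without *Tip60* cKO replicate 5 and 0.134 when scaled to the library sum), while *Aqp4* and *Aldh1l1* had no peak in any list. With single libraries left out, *Gfap* passed in 3 of 10 cases. Its difference was −2.48 percentage points over all transcript starts (limma adjusted p = 0.697) and −10.1 with an equal number of peaks (limma adjusted p = 0.220). Summed over the 3 astrocyte markers, coverage was 12.9 to 25.8% in control and 0 to 8.35% in *Tip60* cKO libraries. Summed coverage of the 2 markers of oligodendrocyte precursors ran the other way, from 0 to 7.80% in control and from 5.72 to 30.7% in *Tip60* cKO libraries, with *Pdgfra* at 0 in all 10 lists. No marker of inhibitory neurons had a peak in a control library, and their sum reached 8.498% in *Tip60* cKO libraries, with *Gad1* at 0 in all lists. Of the oligodendrocyte markers, *Mbp* had a peak in all 10 lists, with 52.6 ± 2.39% covered in control and 44.4 ± 11.6% in *Tip60* cKO mice (SD, n = 5, limma adjusted p = 0.319; difference 2.73 when scaled to the library sum), and *Mog* had none. Of the endothelial markers, *Cldn5* had a peak in 1 *Tip60* cKO list (13.7% covered) and *Pecam1* in none. The part of other cells in the results on the 9 genes was not tested.

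Upstream sequences of 5 of the genes are shown because their peaks took different shapes at the TSS. They come from the RefSeq promoter table (GRCm38.p6, minus strand in all 5 cases), which holds 7 of the 9 genes and has no entry for *Bace1* and *Mapt*. Only bases upstream of the annotated start and outside any annotated exon are printed, 5′ to 3′, and capitals mark GC boxes (GGGCGG, or CCGCCC on the other strand).
App, chr16:85173767-85173957: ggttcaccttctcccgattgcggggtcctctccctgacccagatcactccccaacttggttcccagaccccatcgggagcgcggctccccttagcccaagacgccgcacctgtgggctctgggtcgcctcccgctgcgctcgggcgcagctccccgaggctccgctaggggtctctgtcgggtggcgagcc
Aplp1, chr7:30445583-30445832: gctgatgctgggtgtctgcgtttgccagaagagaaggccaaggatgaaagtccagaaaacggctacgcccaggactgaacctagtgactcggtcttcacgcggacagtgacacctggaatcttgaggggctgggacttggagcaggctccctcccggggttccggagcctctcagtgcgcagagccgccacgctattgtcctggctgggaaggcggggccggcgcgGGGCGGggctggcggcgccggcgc
Aplp2, chr9:31211849-31212098: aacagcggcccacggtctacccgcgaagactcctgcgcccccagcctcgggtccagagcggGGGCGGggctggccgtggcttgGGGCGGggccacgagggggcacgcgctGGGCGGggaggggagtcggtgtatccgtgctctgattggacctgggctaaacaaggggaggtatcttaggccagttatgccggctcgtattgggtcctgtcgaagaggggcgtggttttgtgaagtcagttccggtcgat
Apbb1, chr7:105581654-105581741: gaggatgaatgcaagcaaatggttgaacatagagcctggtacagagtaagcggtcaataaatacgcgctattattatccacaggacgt
Psen2, chr1:180256301-180256428: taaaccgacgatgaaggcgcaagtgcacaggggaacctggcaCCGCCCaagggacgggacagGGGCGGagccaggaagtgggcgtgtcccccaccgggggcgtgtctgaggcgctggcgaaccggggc
The window of *Aplp2* held 3 GC boxes, that of *Psen2* 2 and that of *Aplp1* 1, whereas the windows of *App* and *Apbb1* held none. Among all 32851 promoter entries, 32.7% held a GC box in the same 250 bases, 27.1% in the 128 bases used for *Psen2*, 23.1% in the 191 bases used for *App* and 9.12% in the 88 bases used for *Apbb1*. GC content was 70.3% for *Psen2*, 69.6% for *App*, 66.4% for *Aplp2* and 66.0% for *Aplp1*, against 43.2% for *Apbb1*. The windows are not at like positions. Those of *App* and *Apbb1* stop at the annotated 5′ ends (85173766 and 105581653), upstream of the RefSeq starts (85173707 and 105581491). Bases between these positions were not read, whereas the other windows lie directly at the RefSeq start. The window of *Psen2* lies upstream of an internal start, 7138 bp after the annotated 5′ end of the gene, because peaks were found there and not at the 5′ end.

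Width and height of the mark at the TSS were read as separate values. Width was the percentage of the 4 kb TSS window covered by peaks, and height was the MACS fold enrichment over background of the strongest peak in that window, as log2 minus the median of the library. This centring removes from height a difference shared by a whole library, which width keeps unless scaled to the library sum. In control mice, 8 of the 9 genes had a TSS peak in all lists, which holds for 44% of protein-coding genes over all 10 lists. *Mapt* came first with 57.6 ± 4.65% of the window covered, above 97.3% of the 21951 protein-coding genes (SD, n = 5). It was followed by *Apbb2* with 52.3 ± 9.26%, *App* with 46.5 ± 6.998% and *Aplp2* with 40.6 ± 5.03%. *Aplp1* with 31.3 ± 3.26%, *Bace1* with 30.7 ± 7.79%, *Apbb1* with 29.4 ± 3.15% and *Adam10* with 23.2 ± 6.15% had narrower coverage. The ranges of neighbours in this order overlapped between mice, except that *Adam10* stood above *Psen2*, which had no peak at its annotated 5′ end in any of the 10 lists.

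In *Tip60* cKO mice mean coverage was lower at 6 of the 8 genes tested, namely *Mapt*, *Aplp2*, *Apbb2*, *Bace1*, *Apbb1* and *Adam10*, while the means of *App* and *Aplp1* were slightly above those of control mice. None of the 8 genes passed the test across all genes (limma, Benjamini-Hochberg adjusted p from 0.0733 to 0.964), and 331 of 21672 genes were called lower (1.53%) and 8 called higher (0.0369%). Without adjustment, those 6 genes had p below 0.05, as had 22.3% of all genes in the same direction. The median difference of the 8 genes was −10.3 percentage points and that of all genes tested −4.01, with 81% of all genes lower in the mean. These sets are unlike, as the genes tested needed a peak in only 2 lists, whereas the 8 genes had a peak in every list. With a peak in at least 5 lists required, the median over all genes was −4.90. When coverage was scaled to the sum of each library, an alternative added after seeing the data, 60 genes were called lower and 49 higher. This scaling removes a loss shared by all genes, and the median difference over all genes was then −0.002. Of 21672 genes, 1587 were lower and 1436 higher at unadjusted p below 0.05 in limma. The differences were then −6.24 for *Mapt*, −6.22 for *Bace1*, −4.45 for *Aplp2*, −4.34 for *Adam10*, −2.25 for *Apbb1* and −0.31 for *Apbb2*, against 10.1 for *Aplp1* and 13.2 for *App*. Calls over all genes ran from 40 without control replicate 5 to 1416 without *Tip60* cKO replicate 1, with each other library left out giving counts between these.

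**Figure D1:**
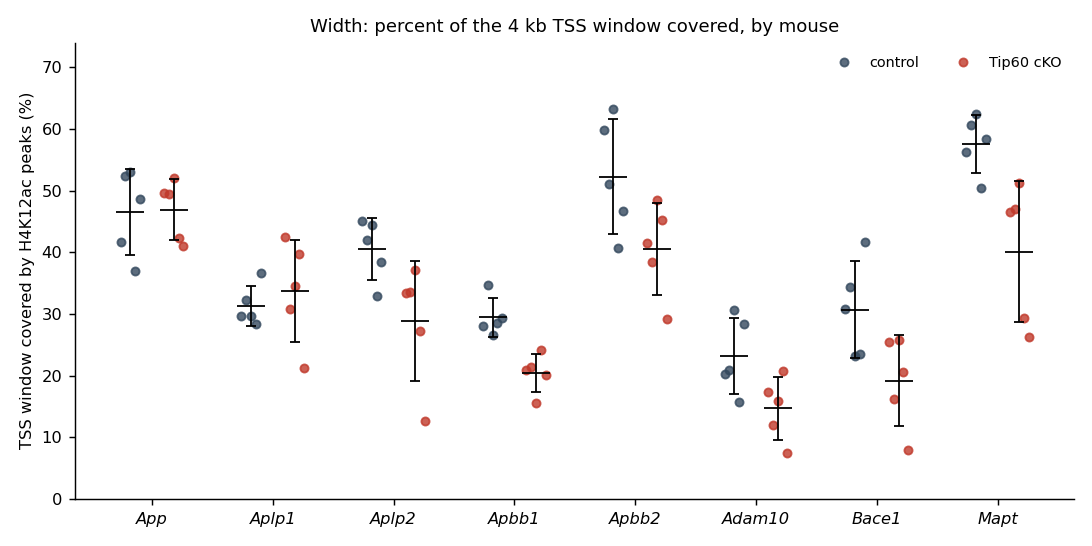
Percentage of the 4 kb TSS window covered by H4K12ac peaks (vertical axis) for 8 genes, with 1 point per mouse for 5 control (blue) and 5 *Tip60* cKO mice (red), and mean and SD as bars. The groups do not overlap at *Apbb1*, where all *Tip60* cKO mice lie between 15.6 and 24.1% and all control mice between 26.5 and 34.8%.

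Peaks also differed in shape. The strongest peak had its summit downstream of the TSS in 76 of 80 gene and library pairs, and the base of the TSS itself lay in a peak in all 10 lists at *Aplp1*, in 7 at *Apbb1*, in 5 at *Adam10*, in 4 at *Apbb2* and *Bace1*, in 2 at *Mapt*, in 1 at *App* and in none at *Aplp2*. Over the 13004 genes with a TSS peak in every list, the median was 4 lists, with 16.7% of genes covered at this base in all lists and 25.2% in none. The start of *Aplp1* thus lay inside a peak in every mouse, whereas *App*, *Aplp2* and *Mapt* had peaks on either side of an uncovered gap in most mice.

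**Figure D2:**
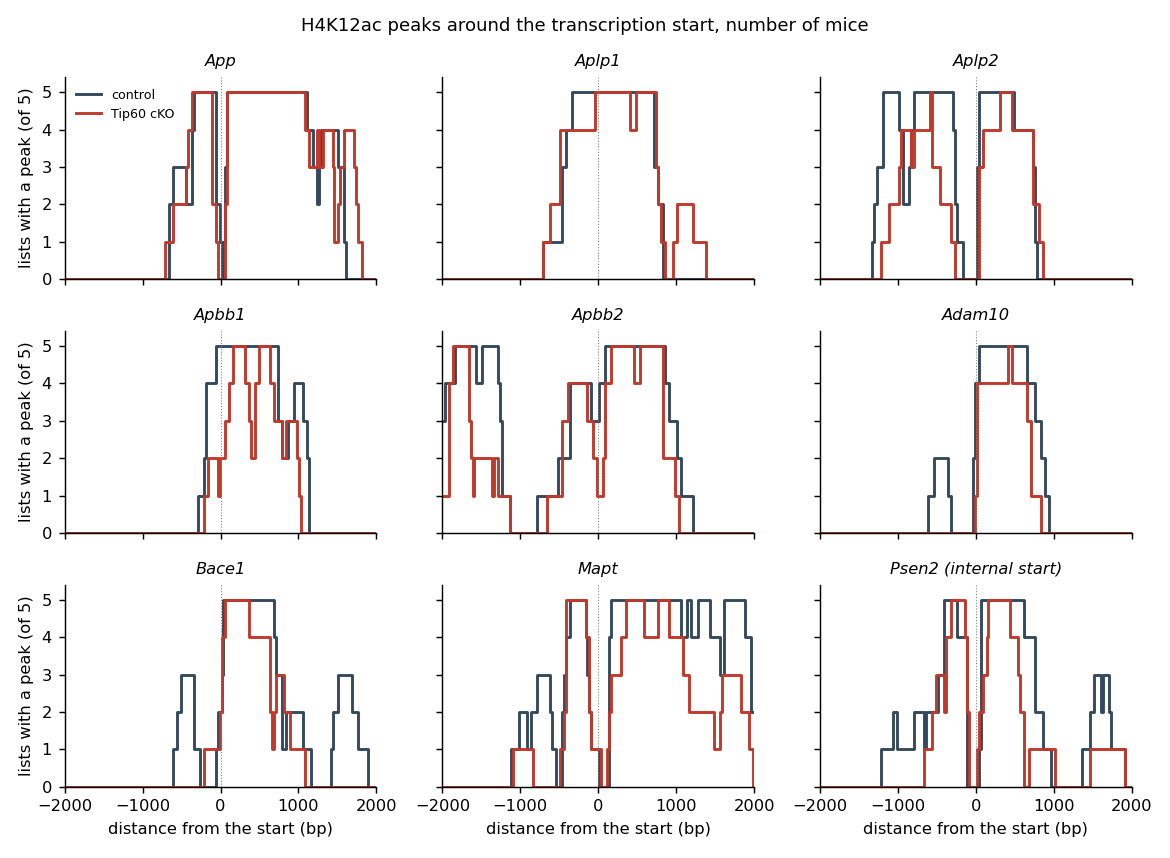
Number of the 5 lists per genotype with a peak (vertical axis) at each distance from the start in bp (horizontal axis, transcription runs to the right), for control (blue) and *Tip60* cKO (red) mice. *Psen2* is drawn at the internal start 7138 bp after its 5′ end. The gap at the start is seen at *App*, *Aplp2* and *Mapt* in both genotypes, and the control line reaches further upstream at *Aplp2*.

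Within the APP family, *Aplp2* had lower means in *Tip60* cKO mice by width and by height, although neither passed the test. *Aplp2* (chr9:31149557-31211815, minus strand) encodes an APP-like protein that secretases also cut. Its coverage was 45.1, 42.0, 44.4, 32.9 and 38.5% in control replicates 1 to 5 and 33.3, 33.6, 37.1, 27.3 and 12.6% in *Tip60* cKO replicates 1 to 5. The groups overlapped, with *Tip60* cKO replicates 1 to 3 above the lowest control, and the difference was −11.8 percentage points (SE 4.46, adjusted p = 0.153, limma). It was −9.16 on sequencing lane 7, −15.7 on lane 8 and −7.74 without *Tip60* cKO replicate 5.
The fold enrichment of the strongest *Aplp2* peak was 7.20, 6.10, 6.35, 6.64 and 6.75 in control mice and 5.14, 4.85, 4.16, 4.25 and 4.197 in *Tip60* cKO mice, without overlap. Relative to the library median the log2 difference was −0.36 (SE 0.13, limma adjusted p = 0.125), lower than that of all but 2.88% of genes, with −0.27 on lane 7 and −0.51 on lane 8. It was the only 1 of the 8 genes with an unadjusted p below 0.05 by height, as against 6.2% of the 13004 genes tested in this direction, and with groups that did not overlap, as against 1.19%. Of these genes, 0.792% were called lower and 2.78% higher. Height was lower in the mean at 6 of the 8 genes and at 45.6% of all genes. The percent rank of the peak among all TSS windows also separated the groups, from 87.2 to 92.0 in control and from 77.3 to 84.3 in *Tip60* cKO mice (limma adjusted p = 0.112). Such separation was found at 1.62% of genes, and 0.235% were called by rank in either direction. Coverage upstream of the *Aplp2* TSS was 944 ± 126 bp in control and 535 ± 219 bp in *Tip60* cKO mice (two-sided exact permutation test, n = 5, p = 0.0159), and the mean of the *Tip60* cKO mice was 607 bp without replicate 5 (exact p = 0.0159). Downstream of it the values were 680 ± 108 and 617 ± 215 bp (exact p = 0.627), and the mean of the *Tip60* cKO mice was 707 bp without replicate 5, above that of control (exact p = 0.714). These are 2 of 33 such tests of the number of body peaks, the longest TSS peak and the length covered on either side of the TSS, of which 4 gave p below 0.05 without adjustment, all lower in *Tip60* cKO mice. Of the 13004 genes with a TSS peak in every list, the same test gave p below 0.05 in this direction at 15.3% for the upstream side, 19.5% for the downstream side and 21.4% for the longest peak.

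*App* (chr16:84949685-85173766, minus strand), the precursor of amyloid-beta, had close means of unscaled coverage in both genotypes, with ranges that overlapped. Coverage was 41.7, 52.3, 53.0, 36.9 and 48.6% in control replicates 1 to 5 and 49.6, 49.5, 52.1, 42.3 and 41.0% in *Tip60* cKO replicates 1 to 5. The difference was 0.39 percentage points (SE 3.66, limma adjusted p = 0.964), with 1.38 on lane 7, −1.10 on lane 8 and 1.86 without *Tip60* cKO replicate 5, and 83.5% of all genes had a lower difference. Scaled to the library sum the means were 41.6% for control and 54.8% for *Tip60* cKO mice (two-sided exact permutation test, p = 0.0317, not adjusted). The lowest limma adjusted p of *App* coverage in any alternative was 0.213. Height differed by −0.05 in log2 (SE 0.16, limma adjusted p = 0.905). *Aplp1* (chr7:30434982-30445535, minus strand), a neuronal APP-like protein, had 29.6, 32.2, 29.6, 28.4 and 36.6% of its window covered in control mice and 42.5, 30.8, 34.5, 39.7 and 21.3% in *Tip60* cKO mice. *Tip60* cKO values were thus both above and below the control range, with a difference of 2.47 percentage points (SE 3.78, limma adjusted p = 0.719), or 5.58 without *Tip60* cKO replicate 5, and with 5.44 on lane 7 and −1.99 on lane 8. Scaled to the library sum, means of *Aplp1* were 28.1% in control and 38.2% in *Tip60* cKO mice (two-sided exact permutation test, p = 0.00794, not adjusted). The lowest limma adjusted p of *Aplp1* coverage in any alternative was 0.0901. Its strongest peaks reached a fold enrichment of 6.64 to 11.6 in control mice and of 5.397 to 9.45 in *Tip60* cKO mice, with a centred log2 difference of −0.12 (SE 0.15, limma adjusted p = 0.753).

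Of the Fe65 family, *Apbb1* had less of its window covered in each *Tip60* cKO mouse than in any control mouse, while the mean height of its peak was not lower. *Apbb1* (chr7:105558483-105581653, minus strand) encodes Fe65, the adaptor that joins the APP intracellular domain and TIP60. Its coverage was 28.1, 34.8, 26.5, 28.5 and 29.4% in control mice and 20.9, 21.3, 15.6, 24.1 and 20.02% in *Tip60* cKO mice, and every control mouse lay above every *Tip60* cKO mouse. The difference was −9.06 percentage points (SE 2.44, limma adjusted p = 0.0733), which did not pass the test, with −10.5 on lane 7, −6.86 on lane 8 and −8.97 without *Tip60* cKO replicate 5. Groups without overlap and lower in *Tip60* cKO mice were found at 5.23% of all genes tested. Scaled to the library sum, the difference was −2.25 (limma adjusted p = 0.812).
The longest *Apbb1* peak in the TSS window measured 1123, 1391, 854, 930 and 970 bp in control mice and 511, 655, 624, 563 and 536 bp in *Tip60* cKO mice, again without overlap (two-sided exact permutation test, n = 5, p = 0.00794, the smallest that 5 against 5 mice allow). Without *Tip60* cKO replicate 5 the mean of that group was 588 bp (exact p = 0.00794). At p below 0.05 in this test, the longest peak was shorter in *Tip60* cKO mice at 21.4% of 13004 genes, and downstream coverage was lower at 19.5%. Over whole lists the mean peak length was 352 to 464 bp in *Tip60* cKO and 423 to 498 bp in control mice. Downstream of the *Apbb1* TSS, peaks covered 991 ± 74.5 bp in control and 743 ± 106 bp in *Tip60* cKO mice (SD, n = 5, exact p = 0.00794, and the same p without *Tip60* cKO replicate 5). All 5 control lists had the TSS base in a peak, against 2 of the 5 *Tip60* cKO lists. In contrast, the height of the strongest peak was 0.24 higher in log2 relative to the library (SE 0.13, limma adjusted p = 0.368), with fold enrichments of 4.77 to 6.78 in control mice and of 5.70 to 6.58 in *Tip60* cKO mice. Its rank among all TSS windows was 86.2 ± 4.77 in control mice and 91.6 ± 1.67 in *Tip60* cKO mice (SD, n = 5, limma adjusted p = 0.451).

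**Figure D3:**
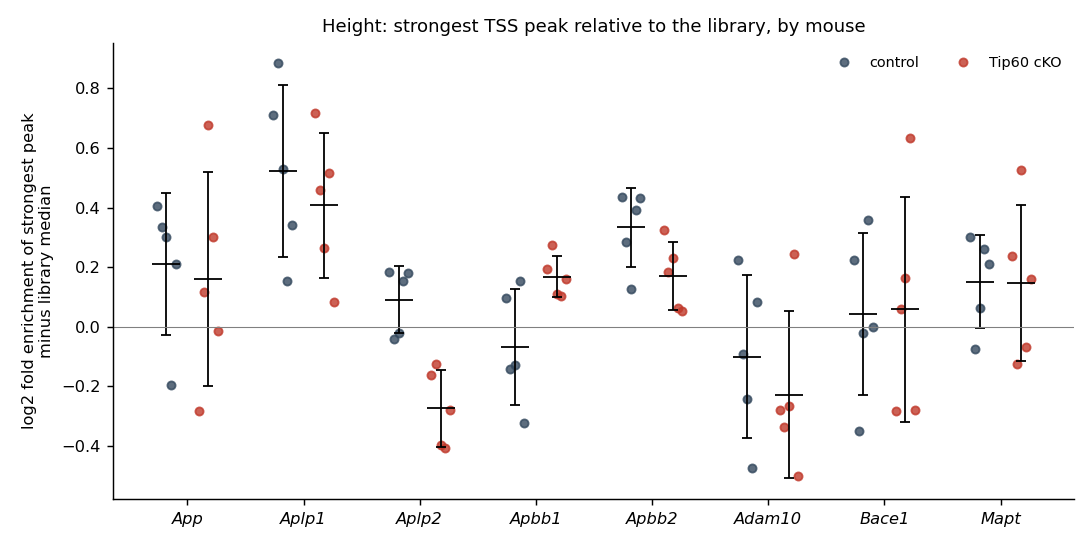
Height of the strongest TSS peak (vertical axis, log2 fold enrichment minus the median of the library) for 8 genes, with 1 point per mouse for control (blue) and *Tip60* cKO (red), and mean and SD as bars. The groups separate at *Aplp2* only, with *Tip60* cKO below control, and the *Tip60* cKO mean lies above the control mean at *Apbb1*.

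*Apbb2* (chr5:66298703-66618784, minus strand), a Fe65-like adaptor and the longest of the 9 genes with 320 kb, had 59.8, 51.1, 63.2, 40.6 and 46.7% of its TSS window covered in control mice and 41.5, 38.5, 48.5, 45.2 and 29.1% in *Tip60* cKO mice. The groups overlapped, and the difference of −11.7 percentage points (SE 4.77) did not pass the test (limma adjusted p = 0.175). It was −15.2 on lane 7, −6.51 on lane 8, −8.84 without *Tip60* cKO replicate 5 and −0.31 when scaled to the library sum. Height differed by −0.16 in log2 (SE 0.13, limma adjusted p = 0.577).

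Both secretase genes with a peak at their 5′ end had lower mean coverage in *Tip60* cKO mice, with overlapping groups. *Bace1* (chr9:45838580-45864399, plus strand), the beta-secretase gene, had 30.8, 34.4, 23.2, 23.5 and 41.7% covered in control and 25.5, 16.1, 25.7, 20.6 and 7.95% in *Tip60* cKO mice. The difference was −11.5 percentage points (SE 4.39, limma adjusted p = 0.155), or −8.73 without *Tip60* cKO replicate 5, and it was −7.01 on lane 7 and −18.3 on lane 8. *Adam10* (chr9:70678997-70780229, plus strand), the alpha-secretase gene, had 20.3, 20.97, 30.7, 15.7 and 28.4% covered in control and 17.4, 12.0, 15.9, 20.7 and 7.37% in *Tip60* cKO mice. Here the difference was −8.53 (SE 3.49, limma adjusted p = 0.175), or −6.70 without *Tip60* cKO replicate 5, with −8.86 and −8.02 on lanes 7 and 8. Peaks at *Bace1* cannot be told apart from those of *Rnf214* and antisense genes that overlap it, or from the start of *Gm7286* within 4 kb, since H4K12ac peaks have no strand. The same limit holds inside *Apbb2*, *App*, *Mapt* and *Psen2*, which overlap 9, 5, 3 and 1 annotated genes. Heights differed by 0.02 at *Bace1* (limma adjusted p = 0.976) and −0.13 at *Adam10* (limma adjusted p = 0.727) in log2.
*Psen2* (chr1:180227004-180263438, minus strand), which encodes presenilin 2, had its peaks around the internal start shown above, at which the RefSeq entry begins. There 32.7, 35.7, 34.7, 31.6 and 47.5% of the 4 kb window was covered in control mice and 35.7, 21.5, 26.99, 23.7 and 17.7% in *Tip60* cKO mice. Only *Tip60* cKO replicate 1 lay within the control range, and the means were 36.4 ± 6.37% for control and 25.1 ± 6.80% for *Tip60* cKO mice (SD, two-sided exact permutation test, n = 5, p = 0.0397, not adjusted). Of the 16 starts of the 9 genes tested in this way, 5′ ends included, 6 had p below 0.05, and at the 5′ ends of all genes 22.3% were lower at this level in limma and 81% in the mean. These 6 starts were lower in *Tip60* cKO mice except an *Apbb1* start 7251 bp after its 5′ end, which was higher. Scaled to the library sum, only that start and the 5′ ends of *App* and *Aplp1* had exact p below 0.05, each higher in *Tip60* cKO mice. With this scaling, 1436 of 21672 genes were higher at the 5′ end at unadjusted p below 0.05 in limma. Without *Tip60* cKO replicate 5 the difference at the *Psen2* start was −9.46 percentage points and exact p 0.0794. Scaled to the library sum the means were 32.6% for control and 28.4% for *Tip60* cKO mice (exact p = 0.103). Fold enrichment at this start was 6.24 ± 0.704 in control and 5.87 ± 1.26 in *Tip60* cKO mice, and an exon of the antisense gene *Gm31728* lies in the same window.

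*Mapt* (chr11:104231390-104332090, plus strand), the tau gene, had the widest coverage in control mice and, in unscaled percentage points, the largest difference in width of the 8 genes. Relative to the control mean the change was −30.4%, against −37.6% for *Bace1*, −36.7% for *Adam10* and −30.8% for *Apbb1*. Coverage was 56.2, 60.7, 62.4, 50.4 and 58.3% in control replicates 1 to 5 and 46.5, 47.0, 51.3, 29.3 and 26.2% in *Tip60* cKO replicates 1 to 5. Only *Tip60* cKO replicate 3 reached the range of the controls, and the difference was −17.5 percentage points (SE 4.94, limma adjusted p = 0.0802). It was −11.5 on lane 7 and −26.6 on lane 8, and with lane as a term in the model it passed the test (limma adjusted p = 0.0277), as did 640 genes in this direction (2.95%) against 331 without the term. The difference was −14.1 without *Tip60* cKO replicate 5 and −6.24 when scaled to the library sum (limma adjusted p = 0.525). A lower difference was found at 3.25% of all genes.
Mean coverage in *Tip60* cKO mice was lower on both sides, with exact p below 0.05 only downstream of the *Mapt* TSS. Downstream of it, peaks covered 1826, 1866, 1722, 1515 and 1815 bp in control and 1436, 1610, 1689, 613 and 735 bp in *Tip60* cKO mice (two-sided exact permutation test, n = 5, p = 0.0317, and exact p = 0.0476 without *Tip60* cKO replicate 5). Upstream, coverage was 555 ± 132 bp in control and 386 ± 114 bp in *Tip60* cKO mice (exact p = 0.0714, and 0.119 without *Tip60* cKO replicate 5). The height of its strongest peak, centred on each library unlike the unscaled width, had nearly the same mean in both groups. It was 0.15 ± 0.16 in control and 0.15 ± 0.26 in *Tip60* cKO mice in centred log2 fold enrichment (SD, n = 5, limma adjusted p = 0.991). Before centring, fold enrichment was 6.91 ± 0.672 in control and 6.12 ± 1.22 in *Tip60* cKO mice (SD, n = 5). The local background in this ratio, which rests on 1 input library per genotype, lay above the genome-wide level in 4 of 5 control lists, reaching 1.45 times that level, and at that level in every *Tip60* cKO list. By pileup, without that background, the log2 difference was −0.085 (limma adjusted p = 0.868). At *Bace1* it reached 1.35 times that level in control lists, with 2 of 5 above it, and lay at that level in the others. At *Apbb2* it reached 1.02 times that level in control lists and was 1.03 times in *Tip60* cKO lists. *App* ran the other way, with up to 1.35 times in 2 *Tip60* cKO lists and at most 1.05 in control lists, and its log2 height difference was 0.065 by pileup. *Adam10* reached 1.26 in control and 1.11 in *Tip60* cKO lists, and at *Aplp1*, *Aplp2* and *Apbb1* all lists lay at the genome-wide level. Over the 10 lists, the coverage at *Mapt* was most like that of *Strn4* and *Ccdc188* (Euclidean distances of 13.5 and 14.2 percentage points).

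**Figure D4:**
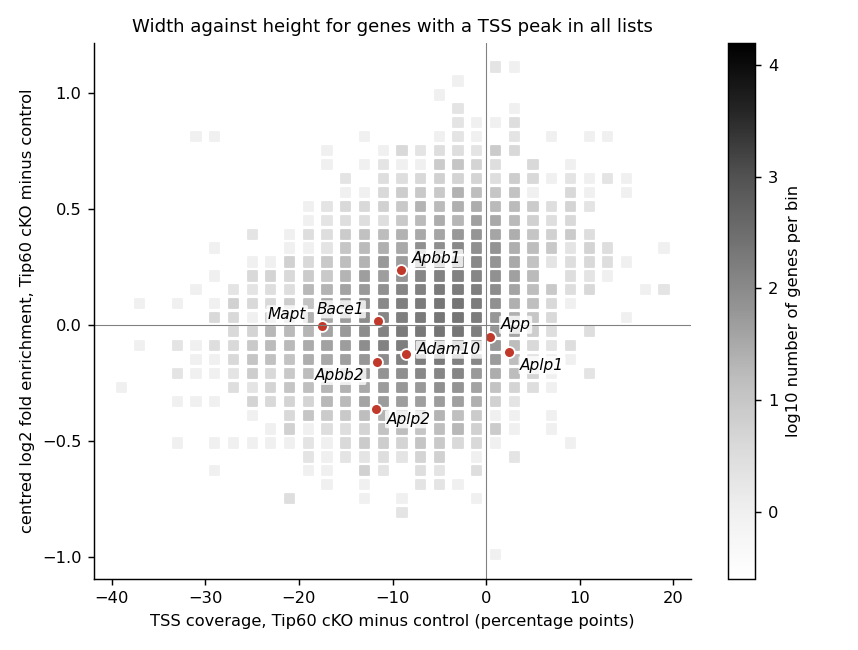
Difference in TSS coverage (horizontal axis, percentage points, *Tip60* cKO minus control) against the difference in centred log2 fold enrichment (vertical axis) for 13004 genes in bins shaded by the log10 number of genes, with 8 genes marked in red. *Mapt* lies far to the left at a height difference near 0, *Aplp2* to the lower left, and *Apbb1* to the upper left. Height is centred on each library, whereas coverage is unscaled.

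Along the genes, peaks covered 18.8% of the body of *Mapt*, 17.9% of that of *Apbb1* and 11.9% of that of *Bace1* in the mean of the control mice. The mean was 6.80% for *Psen2*, 5.12% for *Aplp1*, 4.60% for *Apbb2*, 3.87% for *App*, 0.841% for *Aplp2* and 0 for *Adam10*. Peaks of the 10 lists merged into 202 regions at the 9 genes that had a peak in at least 2 lists. *Mapt* held 54 of them (5.26 per 10 kb), *Apbb2* 55 (1.71 per 10 kb) and *App* 53 (2.34 per 10 kb), whereas *Adam10* held 2, both in its TSS window (0.194 per 10 kb). The shorter genes *Aplp1*, *Bace1*, *Apbb1* and *Psen2* held 3.98, 3.95, 3.18 and 2.08 regions per 10 kb, and *Aplp2* held 0.934. At *Mapt*, 11 regions were found in all 10 lists, 9 of them outside the TSS window, against 1 outside it at *App* and 4 at *Apbb2*.
Body coverage of *Mapt*, from 2 kb after the TSS to the gene end, was 21.6, 24.1, 17.4, 9.54 and 21.4% in control and 29.02, 18.9, 28.5, 18.9 and 8.48% in *Tip60* cKO mice. It showed a difference of 1.96 percentage points, opposite in sign to that at the TSS, with wide overlap (SE 4.32, limma adjusted p = 0.882), and of 5.02 without *Tip60* cKO replicate 5. *Apbb2* had 4.98, 5.36, 3.88, 3.48 and 5.27% of its body covered in control and 3.96, 2.88, 3.94, 3.18 and 1.11% in *Tip60* cKO mice. Its difference was −1.58 (SE 0.63, limma adjusted p = 0.271), or −1.11 without *Tip60* cKO replicate 5. Its unadjusted p in limma was 0.0334, the only 1 below 0.05 among these genes, as against 14.9% of all genes lower at this level. For the other 7 genes adjusted p was 0.611 or more, and 45 of 12823 genes were called in all (0.351%), each lower in *Tip60* cKO mice. With body coverage scaled to the library sum, 103 genes were called lower and 39 higher.

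**Figure D5:**
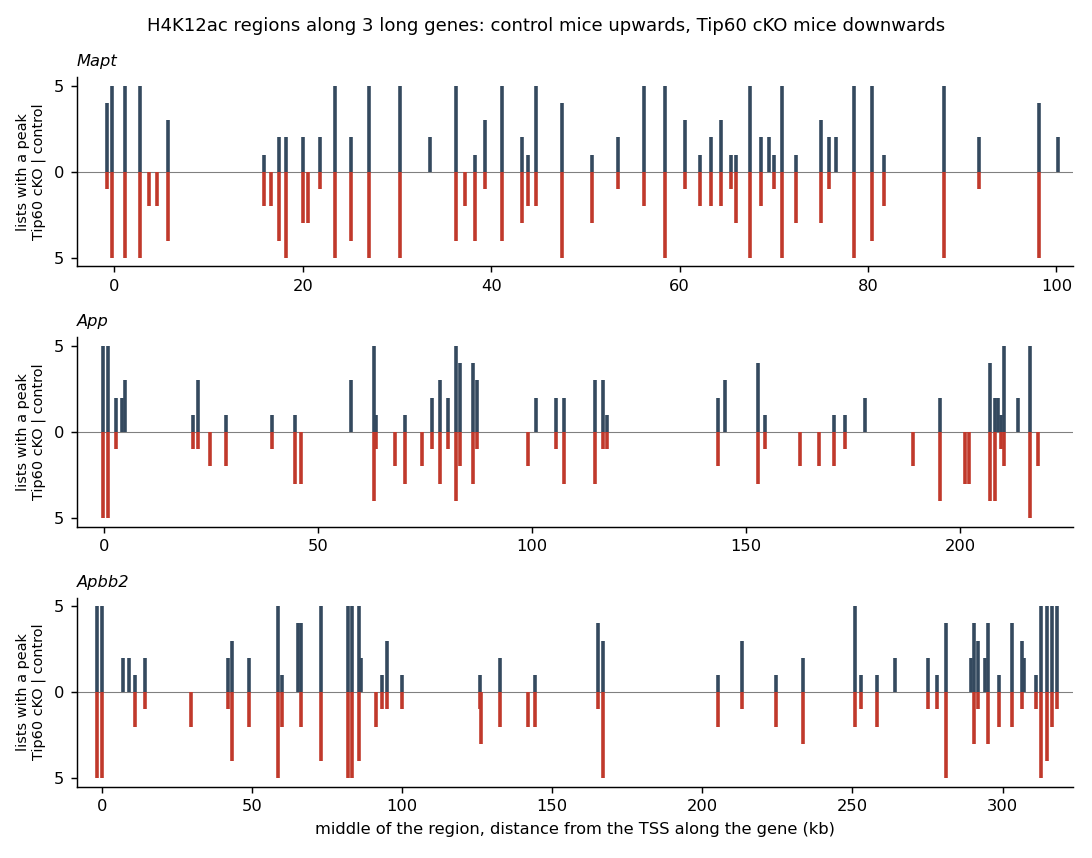
Number of lists with a peak (vertical axis, control upwards in blue, *Tip60* cKO downwards in red, at most 5 each) for each merged H4K12ac region by its distance from the TSS in kb (horizontal axis) at *Mapt*, *App* and *Apbb2*. *Mapt* has regions shared by all mice along its whole length, and those of *App* and *Apbb2* are sparser and more often found in a few mice.

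None of the 202 regions passed the test by rank score, the percent rank of the region's strongest peak with 0 where there was none (lowest limma adjusted p = 0.147), as against 0.475% of all 144701 regions called lower and 0.0864% called higher. Without adjustment 25 had p below 0.05, of which 14 were lower and 11 higher, and the share of 12.4% is close to that of all regions (12.0%). By gene, these were 6 of the 11 regions of *Bace1* (4 lower and 2 higher), 7 of 53 at *App* (4 lower and 3 higher), 6 of 55 at *Apbb2* (5 lower and 1 higher) and 6 of 54 at *Mapt* (1 lower and 5 higher), with none at the other 5 genes. The mean was lower in *Tip60* cKO mice at 51.0% of the 202 regions and at 56.9% of all regions. A peak in at least 4 more control than *Tip60* cKO lists was found at 3 of the 202 regions, and at 2.27% of all regions. The opposite was found at none of the 202 and at 0.498% of all regions.
The first lies in an intron of *Apbb2*, 65.4 kb after the TSS (chr5:66553128-66553559), and had a peak in 4 control lists, with fold enrichments of 2.86 to 4.08, and in no *Tip60* cKO list (limma adjusted p = 0.147). Its middle 300 bases on the strand of the gene are shown because it had the largest difference in rank score of these 3 regions, with CpG sites in capitals.
Apbb2 intron, chr5:66553194-66553493: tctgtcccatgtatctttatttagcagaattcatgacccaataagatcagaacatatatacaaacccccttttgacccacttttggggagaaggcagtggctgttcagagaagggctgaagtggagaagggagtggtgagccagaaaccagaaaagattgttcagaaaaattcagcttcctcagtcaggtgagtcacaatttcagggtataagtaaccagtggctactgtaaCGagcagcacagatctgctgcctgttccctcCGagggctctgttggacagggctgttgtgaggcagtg
It holds 2 CpG sites and 47.3% G or C, below the 66.0 to 70.3% of the upstream windows of *App*, *Aplp1*, *Aplp2* and *Psen2* and above the 43.2% of that of *Apbb1*. The second lies in the last exon of *Apbb2* (chr5:66300274-66301185), with a peak in all 5 control lists and in *Tip60* cKO replicate 3 alone (limma adjusted p = 0.245). The third lies 1.64 kb after the TSS of *Bace1* (chr9:45839985-45840459), with peaks of 2.94 to 3.83-fold enrichment in 4 control lists and none in *Tip60* cKO lists (limma adjusted p = 0.147).

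For the other genes the region with the smallest unadjusted p is given as a value. At *App* it was an exonic region at chr16:84962761-84964001, found in 5 control lists with 3.57 to 4.08-fold enrichment and in *Tip60* cKO replicates 3 and 4 with 2.51 and 3.37 (limma adjusted p = 0.155). At *Mapt* it was an intronic region at chr11:104257443-104259385, present in all 10 lists and higher in *Tip60* cKO mice, with fold enrichments of 3.90 to 4.95 against 2.75 to 3.43 (limma adjusted p = 0.158). At *Aplp2* it was the upstream TSS peak (chr9:31211981-31213159), with rank scores lower by 13.2 in the mean (limma adjusted p = 0.418). At *Apbb1* it was an exonic region at chr7:105559230-105559787 with a peak in 5 control and 3 *Tip60* cKO lists. At *Adam10* it was a region at chr9:70678375-70678682 with a peak in 2 control lists only. Regions at *Aplp1* (chr7:30444151-30444570) and *Psen2* (chr1:180245612-180245893) had a peak in 2 *Tip60* cKO lists each and in no control list. For these 4 regions limma adjusted p was 0.418.

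Other genes of the same pathways, 41 in 6 lists, had a TSS peak in all 10 lists in 38 cases, and *Ide* and *Mme*, which encode proteases that degrade amyloid-beta, had none. Of the 39 genes tested, 2 passed the test for TSS coverage and both were lower in *Tip60* cKO mice, as were the 1.53% of all genes called lower. *Ece1*, an endothelin-converting enzyme that also degrades amyloid-beta, had 36.0 ± 5.77% of its window covered in control and 18.2 ± 6.27% in *Tip60* cKO mice (SD, n = 5, limma adjusted p = 0.0376). *Ppp2ca*, the catalytic subunit of the tau phosphatase PP2A, had 46.5 ± 4.17 and 30.5 ± 6.90% (limma adjusted p = 0.0492). Scaled to the library sum neither passed (limma adjusted p = 0.227 for *Ece1* and 0.271 for *Ppp2ca*). With single libraries left out, *Ece1* passed only without *Tip60* cKO replicate 1 or 2 or control replicate 4, with adjusted p from 0.0350 to 0.0998 in limma. *Ppp2ca* passed only without *Tip60* cKO replicate 1 or control replicate 4 (limma adjusted p from 0.0314 to 0.114). Mean coverage was lower at 36 of the 39 genes, as it was at 81% of all genes, with a median difference of −8.71 percentage points against −4.01 over all genes. With a peak in at least 5 lists required, these medians were −8.73 and −4.90. Scaled to the library sum, mean coverage was lower at 21 of the 39 genes, with a median of −0.67.
By list, coverage was lower in the mean at all 12 APP adaptors, sorting and related membrane proteins (median −11.8, none called), at 11 of 12 tau kinases and phosphatase subunits (median −6.39, 1 called), at all 4 other microtubule-associated proteins (median −7.23, none called) and at 4 of 5 gamma-secretase subunits (median −7.68, none called). It was lower at the 3 amyloid-beta clearance genes tested (median −9.57, 1 called) and at 2 of 3 secretases and sheddases (median −1.07, none called). The largest negative differences were those of *Apba3*, an APP-binding adaptor, with −22.9 (limma adjusted p = 0.104), or −18.3 without *Tip60* cKO replicate 5, and *Map1a*, a microtubule-associated protein, with −22.5 (limma adjusted p = 0.0793), or −19.7 without that library. With single libraries left out, *Map1a* passed the test only without control replicate 4 (limma adjusted p = 0.0183). It also passed with an equal number of peaks (limma adjusted p = 0.0346). Over all transcript starts its difference was −4.54 (limma adjusted p = 0.806), and scaled to the library sum it was −14.4 (limma adjusted p = 0.206). The largest positive ones were those of *Aph1c*, a gamma-secretase subunit, with 2.51 (limma adjusted p = 0.810) and *Bace2*, a relative of *Bace1*, with 1.40 (limma adjusted p = 0.745). By height, none of the 38 genes tested in these lists was called, 24 were lower and 14 higher in the mean, against 45.6% of all genes lower, and the median log2 difference was −0.08.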

How the data were processed

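H4K12ac ChIP-Seq was done by the authors on FACS-sorted neuronal nuclei of the hippocampus of 5 *Tip60* cKO and 5 control mice, with 1 pooled input library per genotype. Reads were mapped by STAR to mm10 and freed of duplicates, and MACS 2.1.0.20140616 (q cutoff 0.1) was run on each library with the input of its own genotype as control. The deposited lists give for each peak the pileup, a coverage signal at the summit, the fold enrichment, a ratio of that signal to the local background, and −log10 p-values and q-values. Between 22864189 and 37923809 tags per library were used. The strongest TSS peaks of the 9 genes held pileups of only 11 to 56 fragments, and a region without a peak was below threshold, not shown to lack the mark. The authors' own test of reads (DiffBind) was not repeated, and deletion of *Tip60* cannot be checked from peaks.

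TSSs and genes were taken from GENCODE M21 (GRCm38, the build mm10). TSS coverage, TSS rank score, centred log2 fold enrichment, gene body coverage (genes over 4 kb) and merged regions were compared between genotypes with limma 3.58.1 (R 4.3.3, lmFit and eBayes), adjusted by Benjamini and Hochberg over all features with a peak in at least 2 lists, or in all 10 lists for fold enrichment. Single values were compared by two-sided exact permutation tests over 252 assignments of 5 against 5 mice (Python 3.11.15, scipy 1.17.1). The limma step was tested on simulated data. Groups follow the labels, lanes (7 and 8) the file names. Same-numbered mice are different animals. The genes, lists and rules were chosen with earlier results of these data known. Named were all 9 genes, regions passing the test or found in at least 4 more lists of one genotype (otherwise the smallest p), pathway genes passing it plus the 2 largest differences in each direction, and the 2 genes most similar to *Mapt*. Those for *App* are not reported here. Alternatives were q below 0.01, equal peak numbers (64245), pileup, 1 kb windows, all transcript starts, 5 or 8 lists, another limma prior, lane, replicate number, single libraries left out, and scaling to the library sum. That scaling, and exact tests without *Tip60* cKO replicate 5, were chosen after seeing the data. The labels and the published methods give different strains, sexes and library kits, and no comparison used these.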

Additional observations from a re-analysis of the deposited data

Results flagged for a closer look

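Of 65 groups of 5 mice examined, 3 held a sample far from the other 4, which chance gives in about 1 of 20 groups. At *App*, the rank score of the TSS peak was 83.2 in control replicate 4 and 92.5 to 96.0 in the other control mice. Body coverage of *Aplp2* was 1.88% in control replicate 1 and 0.428 to 0.768% in the others. Body coverage of *Bace1* was 2.82% in *Tip60* cKO replicate 5, the library with the fewest tags, and 12.4 to 15.4% in the other *Tip60* cKO mice.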

How the results depend on the processing

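None of the 33 differences of the 9 genes in TSS coverage, TSS height, TSS rank score and gene body coverage passed the limma test, and of 671 alternative values 598 kept the direction and this outcome, 72 changed sign and 1, *Mapt* coverage with lane as a term, passed (adjusted p = 0.0277). The sign held in all alternatives for 14 differences, among them the TSS coverage of *Aplp2*, *Apbb1*, *Apbb2*, *Bace1*, *Adam10* and *Mapt* and the height of *Aplp2* and *Apbb1*. TSS coverage of *App* became −3.48 with q below 0.01, −6.68 with an equal number of peaks, −3.61 in 1 kb windows and −1.10 within lane 8, and that of *Aplp1* −0.82 in 1 kb windows and −1.99 within lane 8. That of the marker *Mbp* became 2.73 when scaled to the library sum. Log2 height by pileup became 0.065 for *App* and −0.039 for *Bace1*. Within lane 8 it was 0.14 for *App*, 0.051 for *Aplp1*, −0.0038 for *Bace1* and 0.067 for *Adam10*, and for *Mapt* it was 0.12 within lane 7 and 0.052 over all transcript starts. Rank score became 1.26 by pileup and 2.60 within lane 8 for *App*, 0.28 within lane 8 for *Aplp1*, 0.988 within lane 8 for *Adam10*, 0.0208 within lane 7 for *Bace1*, and 1.65 within lane 7 and 0.586 over all transcript starts for *Mapt*. Body coverage scaled to the library sum became 0.317 for *App*, 4.96 for *Apbb1*, 0.0689 for *Psen2* and 1.66 for *Bace1*, and with an equal number of peaks 0.813 for *Apbb1* and 1.99 for *Bace1*. Within lane 7 it was 0.364 for *App*, 0.0978 for *Psen2* and 0.726 for *Bace1*, and within lane 8 −0.684 for *Aplp1*, −0.083 for *Aplp2*, 2.05 for *Apbb1* and −1.77 for *Mapt*. The cause was not tested. With single libraries left out, TSS coverage of *App* ran from −2.003 to 2.02. Log2 height ran from −0.19 to 0.058 for *App*, −0.14 to 0.10 for *Bace1* and −0.11 to 0.055 for *Mapt*. Rank score ran from −4.13 to 0.396 for *App*, −2.53 to 0.298 for *Aplp1*, −3.61 to 1.208 for *Bace1* and −2.64 to 0.687 for *Mapt*. Body coverage ran from −0.825 to 0.216 for *App*, −0.209 to 0.276 for *Aplp2*, −2.51 to 0.578 for *Apbb1*, −1.67 to 1.68 for *Bace1* and −0.356 to 5.02 for *Mapt*.

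Counts over all genes moved more. TSS coverage gave 339 calls, 734 with an equal number of peaks, 653 with lane as a term and 109 scaled to the library sum. Without single libraries it gave 40 (control replicate 5) to 1416 (*Tip60* cKO replicate 1) calls, namely 108, 207, 112 and 158 without *Tip60* cKO replicates 2 to 5 and 79, 51, 177 and 931 without control replicates 1 to 4. Height gave 464 calls, 300 with an equal number of peaks and 17 by pileup, and from 250 to 406 without single libraries. Rank score gave 51 calls, 86 with a trended robust prior and from 57 to 101 without single libraries. Body coverage gave 45 calls, 112 with an equal number of peaks, 9 with a trended robust prior, 142 when scaled, and from 0 (without *Tip60* cKO replicate 5 or control replicate 5) to 250 (without control replicate 4). Merged regions gave 812 calls, 317 with a trended robust prior and from 929 to 1407 without single libraries. With the replicate number as a replicate block, limma gave 0 calls for TSS coverage, where 4351 genes were lower and 156 higher at unadjusted p below 0.05, 0 for body coverage, where 1472 were lower and 84 higher, 35 for rank score, 518 for height and 261 for merged regions. Same-numbered mice deviated together with correlations of −0.15 to 0.13 in TSS coverage, and no pair correlated best with its own number. The lists show no region below the peak threshold, and 5 mice a group limit the precision of each difference.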

Other observations

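Several of the genes carried H4K12ac at annotated starts inside the gene. Of 41 separate starts annotated for the 9 genes, 16 had a peak within 2 kb in all 10 lists, 8 of them away from the 5′ end, at *Apbb1*, *Bace1*, *Mapt* and *Psen2*. Within *Apbb1*, the start 7251 bp after the 5′ end had 11.4, 9.20, 16.8, 5.15 and 13.3% of its window covered in control and 12.8, 22.0, 23.0, 32.2 and 19.5% in *Tip60* cKO mice (two-sided exact permutation test, n = 5, p = 0.0238, not adjusted over the 16 starts). Exact p was 0.0397 without *Tip60* cKO replicate 5. This is the reverse of the direction at its 5′ end. Scaled to the library sum, exact p at this start was 0.0159. At the other 3 internal *Apbb1* starts, which lie 2298 and 1789 bp apart so that neighbouring windows share bases and peaks and are not separate measurements, the mean was lower in *Tip60* cKO mice, with 42.6 ± 7.90 and 33.2 ± 5.36% at 12061 bp (exact p = 0.0556), 46.9 ± 10.3 and 40.5 ± 12.99% at 14359 bp (exact p = 0.421) and 25.9 ± 10.7 and 22.2 ± 10.7% at 16148 bp (exact p = 0.603) for control and *Tip60* cKO mice. Scaled to the library sum these 3 differences turned to 0.567, 5.94 and 3.60 percentage points. Within *Mapt*, coverage at the start 86643 bp after the 5′ end was 61.8 ± 12.2% in control and 41.8 ± 15.5% in *Tip60* cKO mice (SD, n = 5, exact p = 0.0556), close to the coverage at the 5′ end itself in both groups, while that at 90559 bp was 40.2 ± 12.6 and 38.3 ± 16.6% (exact p = 0.810). The windows of these internal *Mapt* starts share 85 bp, and in some lists the same strongest peak, so they are not separate measurements. At 86643 bp the difference was −15.1 percentage points without *Tip60* cKO replicate 5 (exact p = 0.111) and −7.90 scaled to the library sum (exact p = 0.286). At 90559 bp it changed sign, to 3.42 without that replicate (exact p = 0.706) and 6.70 when scaled (exact p = 0.405). Within *Bace1*, coverage at the start 14143 bp after the 5′ end was 15.4 ± 5.91 and 20.9 ± 8.97% (exact p = 0.286), or 24.6 ± 4.02% in *Tip60* cKO mice without replicate 5 (n = 4, exact p = 0.0476). Within *App*, a start 210385 bp after the 5′ end had 27.7, 23.2, 26.5, 8.02 and 15.1% covered in control mice and 0, 0, 12.5, 6.72 and 2.87% in *Tip60* cKO mice. Its peaks are mostly those of the exonic *App* region named in the report, and as 2 *Tip60* cKO lists held none it was not tested.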
